A study of Rattus norvegicus with 9 samples.

Results

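Tubular injury biomarkers are genes whose products are measured in urine, plasma or tissue as signs of damage to the kidney tubule. The 7 genes described here, Havcr1, Lcn2, Spp1, Clu, Timp1, Timp2 and Cst3, were taken by symbol from a kidney gene table of 36267 features. Each symbol stood on 1 row, and all 7 were among the 16731 features that passed the filter on low values.

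RNA from whole kidneys of 9 rats of 180 to 200 g was sequenced in 3 groups of 3 rats. Control rats were untreated. Rats of the CIAKI group (contrast-induced acute kidney injury) were given the loop diuretic furosemide intragastrically (200 mg/kg) and dehydrated for 6 h. They were then injected in the tail vein with 15 mL/kg of iopromide, an iodinated X-ray contrast medium (370 mg I/mL). Rats of the CIAKI+icariin group went through the same steps after icariin, a flavonoid of Epimedium plants, had been given into the stomach daily for 3 days at 100 mg/kg. The labels do not state strain, age or the time between contrast and removal of the kidney. No group analysed here had furosemide and dehydration without contrast, so the parts of the CIAKI treatment cannot be told apart. None had icariin alone, so an effect of icariin without the CIAKI treatment cannot be read.

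Some of these genes are silent in the healthy tubule and are switched on by injury, while others are expressed all the time and reach the urine or plasma by other routes. Havcr1 encodes KIM-1, a phosphatidylserine receptor with which injured proximal tubule cells take up dying neighbours, and whose ectodomain is shed into urine. Lcn2 encodes NGAL, a secreted protein that binds iron-carrying siderophores, Spp1 the secreted integrin ligand osteopontin, and Clu the extracellular chaperone clusterin. Timp1 and Timp2 encode tissue inhibitors of metalloproteinases, of which TIMP-2 is read in urine together with IGFBP7. Cst3 encodes cystatin C, an inhibitor of cysteine cathepsins made by most cells and used as a plasma marker of glomerular filtration.

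In CIAKI kidneys 5 of the 7 genes rose (Havcr1, Lcn2, Spp1, Timp1 and Clu) and 2 fell (Timp2 and Cst3). In limma's test across all features, 20.8% of the 16731 features rose and 20.5% fell, so that 41.3% were called in that comparison. The groups did not overlap for 6 of the 7, against 53.4% of tested features (26.9% higher and 26.5% lower). In icariin kidneys the 5 genes that had risen were lower than in CIAKI (20.2% of tested features were lower, 39.4% changed in either direction), and Timp2 and Cst3 did not pass. The same 5 did not overlap between icariin and CIAKI, against 50.7% of tested features (24.9% higher and 25.9% lower with icariin). Against control, where 0.628% of features were called (0.4% higher and 0.227% lower), Timp2 alone was called. There 2 of the 7 did not overlap, Havcr1 above and Timp2 below control, against 9.12% and 10.2% of tested features. The median log2 fold change of the 7 was 1.35 in CIAKI against control and -1.46 in icariin against CIAKI, where the medians of all tested features were 0.00 and 0.02. Both comparisons use the same CIAKI libraries. The unit, CPM, divides a gene's reads by the size of its library, so that all libraries have an equal sum. Fold changes were taken on log2(CPM + 1), where a low gene's change comes out smaller than its ratio of means. Adjusted p-values are from limma with Benjamini-Hochberg adjustment over all tested features, and a gene is called below 0.05.

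**Figure D1:**
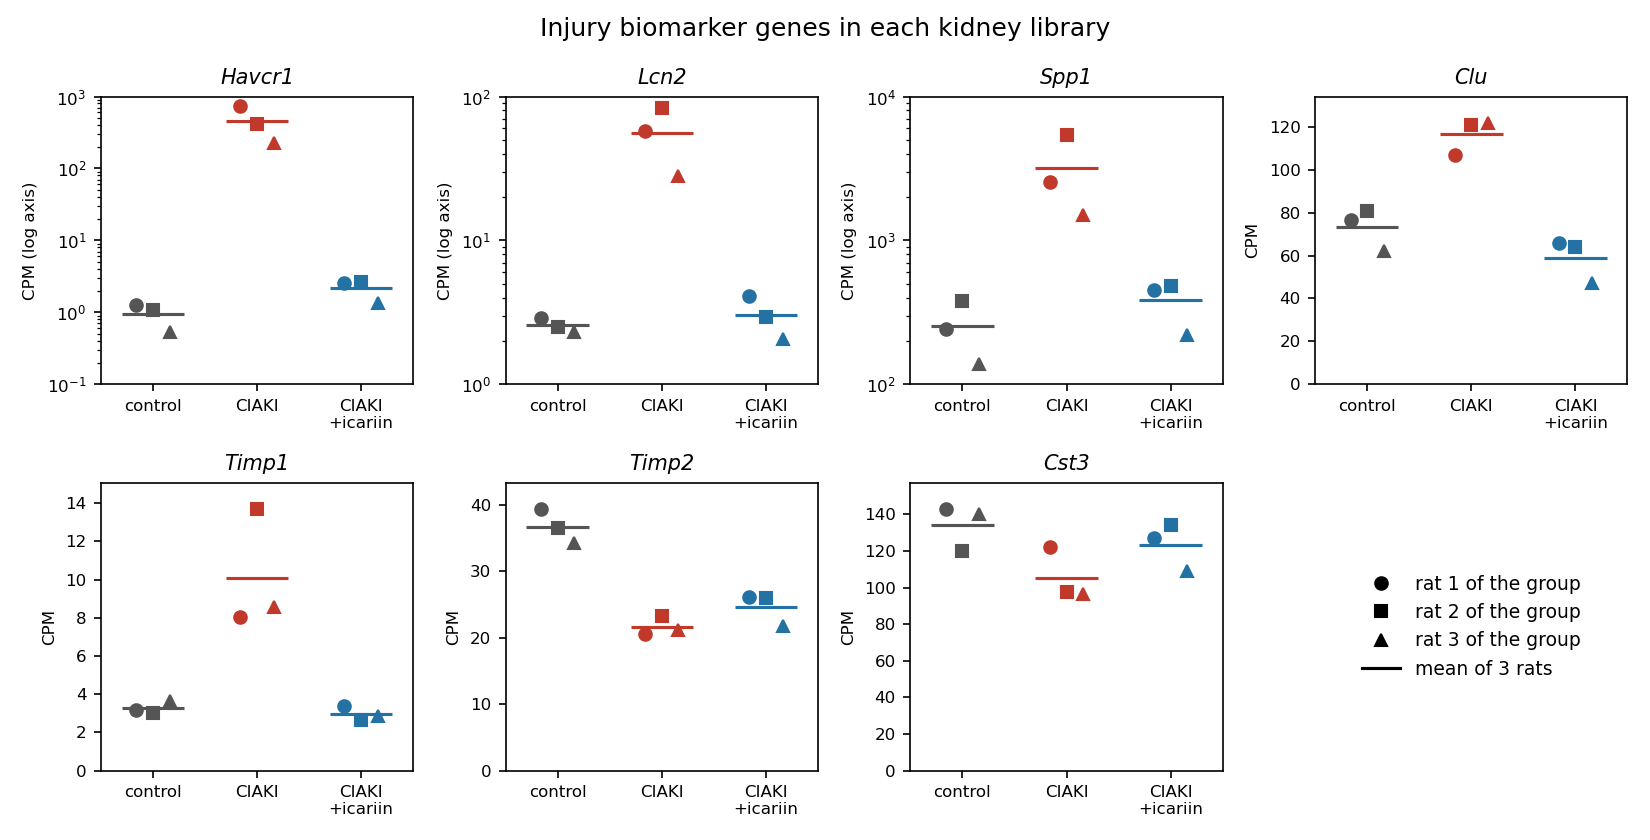
CPM of each injury biomarker gene (vertical axis; a log axis for Havcr1, Lcn2 and Spp1, a linear axis from 0 for the others) in the 9 kidney libraries by group, where symbols mark the rat number within a group and lines the mean of 3 rats. The 3 CIAKI libraries stand above all others for Havcr1, Lcn2, Spp1, Clu and Timp1, while those of Timp2 stand below every control library.

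The start sites of the genes differ in base composition. Sequences upstream of an annotated start were found in RefSeq (build GRCr8) for 6 of the 7 genes. They are shown so that a gene with a large rise (Lcn2) can be set beside a gene that fell (Timp2). Of the 250 bases before the start used, 250 lay outside annotated genes for Timp2, 179 for Lcn2 and 71 for Cst3. For Havcr1, Spp1 and Timp1 0 did. The gene overlapped was the gene itself, with Syn1 besides for Timp1, so the start used need not be the gene's first. For these 3 genes and Cst3, a single window of 30 bases around motif matches is given each. The C/EBP match of Havcr1 and the SP1 match of Cst3 lay outside the windows shown. Capitals mark matches to the motifs listed after the sequences. They come, in this order, from chr10:31629588-31629617 (+ strand), chr3:36081852-36082030 (- strand), chr14:5619991-5620020 (- strand), chrX:3771247-3771276 (- strand), chr10:104089215-104089464 (- strand) and chr3:156794064-156794093 (- strand).
Havcr1: tctgaCAGGAAGTtagaGAATCTTCtgacc
Lcn2: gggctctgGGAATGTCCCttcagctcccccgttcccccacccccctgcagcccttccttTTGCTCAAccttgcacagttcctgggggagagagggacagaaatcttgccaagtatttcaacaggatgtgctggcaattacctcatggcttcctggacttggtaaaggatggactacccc
Spp1: ctaaatgcagtcTATAAAcgaaaagggtag
Timp1: tcagcctggggcCCGCCCctaggctttgac
Timp2: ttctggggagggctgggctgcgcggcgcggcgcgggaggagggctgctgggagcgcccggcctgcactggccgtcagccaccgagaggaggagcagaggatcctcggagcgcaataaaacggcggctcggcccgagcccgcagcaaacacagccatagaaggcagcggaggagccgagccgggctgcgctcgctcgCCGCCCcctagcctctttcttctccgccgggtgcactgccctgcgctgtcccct
Cst3: agctatctgacTTGGGCAAaagcagactag

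Over the 300 bases from 250 before to 50 after the start, the Timp2 window was 70.3% G or C with 32 CpG dinucleotides, above 92.1% and 91.6% of the 33469 RefSeq promoters. That of Havcr1 was 41% G or C with 2 CpG, above 14% and 13.6% of promoters. Spp1 (48.7%), Lcn2 (57.3%), Cst3 (58%) and Timp1 (61.3%) lay between them in G or C content, around a median of 51.7%. Both strands were searched for 10 motifs. C/EBP letters (TTGCNNAA) were found for Havcr1, Lcn2 and Cst3 and in 10.6% of all promoters, and SP1 letters (GGGCGG) for Timp1, Timp2 and Cst3 and in 33.1%. The ETS letters (CAGGAAGT, 3.05% of promoters) and heat shock letters (GAANNTTC, 8.59%) were found for Havcr1 only, a looser NF-kB motif (5.37%) for Lcn2 only, and TATA letters (TATAAA, 14.2%) for Spp1 only among the 6. Letters for AP-1 (TGANTCA, 7.33%), STAT (TTCNNNGAA, 8.87%), CRE (TGACGTCA, 1.83%) and a stricter NF-kB motif (0.362%) were found in 0 of the 6 windows. A match is a run of letters and not a tested binding site. The windows describe the start used here and not every start of a gene.

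In limma's fit Havcr1 had the largest rise of the 16731 tested features in CIAKI against control. Its level was 1.25, 1.08 and 0.529 CPM in the control libraries (91, 75 and 40 reads), 742, 419 and 229 CPM in the CIAKI libraries (61733, 28220 and 14774 reads) and 2.54, 2.63 and 1.35 CPM in the icariin libraries. Each CIAKI library stood above every other library, while the icariin libraries lay just above the controls without overlap, where 19.3% of tested features did not overlap in either direction. The mean was 488-fold higher in CIAKI (464 ± 259 CPM, SD, n = 3) than in control kidneys (0.951 ± 0.375 CPM). The log2 fold change was 7.76 (SE 0.38, adjusted p = 8.76e-06) in CIAKI against control and -7.06 (SE 0.38, adjusted p = 1.24e-05) in icariin against CIAKI. In icariin against control it was 0.69 (95% interval -0.16 to 1.55) and did not pass (adjusted p = 0.607). Because the control level is low, the size depends on the scale: edgeR's quasi-likelihood test on reads recovered from the CPM values gave a log2 fold change of 8.93 against control, and limma with a pseudocount of 5 in place of 1 gave 6.14.

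Beside the Havcr1 rise, 7 of 10 proximal tubule markers fell in CIAKI kidneys and 0 rose, where 20.5% of all tested features fell. The summed level of the 10 was 10885 to 14749 CPM in CIAKI, against 23697 to 27649 CPM in control and 23906 to 25596 CPM in icariin kidneys. Lrp2 was the largest member of that sum (mean 10975 CPM in control and 4881 CPM in CIAKI). The markers not called were Cubn (means of 1763 CPM in control and 1604 CPM in CIAKI), Aqp1 (1574 and 1453 CPM) and Slc4a4 (1547 and 1573 CPM). Slc34a1, the sodium-phosphate cotransporter of this segment, stood at 754, 1084 and 1143 CPM in the CIAKI libraries, against 4921, 4214 and 5058 CPM in control. Falls were not particular to this segment: all 6 podocyte markers fell (575 to 603 CPM in sum in CIAKI, 896 to 970 CPM in control). Of 10 distal and collecting duct markers 5 fell and 2 rose, and of 6 endothelial markers 3 fell and 1 rose. In the thick ascending limb 2 of 6 fell, which is not far from the 20.5% of all tested features. The part of these marker changes in the Havcr1 result was not tested. In whole-kidney RNA, fewer cells of a type and less RNA per cell cannot be told apart.

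Lcn2 rose in CIAKI kidneys and was close to the control level with icariin. Control libraries held 2.89, 2.51 and 2.29 CPM, CIAKI libraries 57.7, 82.6 and 28.2 CPM, and icariin libraries 4.08, 2.94 and 2.05 CPM. The CIAKI libraries did not overlap the others, and the icariin libraries overlapped the controls. The ratio of means was 21.9 in CIAKI over control, and the log2 fold change was 3.88 (SE 0.34, adjusted p = 8.64e-05), 4.46 in edgeR and 2.91 with a pseudocount of 5. Against CIAKI the icariin kidneys lay at -3.73 (SE 0.34, adjusted p = 0.000131), and against control at 0.15 (95% interval -0.63 to 0.93, adjusted p = 0.944). NGAL is also a protein of neutrophil granules, so neutrophil markers were read beside it. Of 10 such genes 1 passed the filter (Csf3r) and was not called in CIAKI against control or in icariin against CIAKI. The 10 summed to 3.18 to 5.35 CPM in CIAKI, 1.64 to 3.8 CPM in control and 0.736 to 2.48 CPM in icariin libraries. The other 9 were below the filter and moved in different directions. S100a8 stood at 0.28 to 1.09 CPM in CIAKI and 0.0793 to 0.26 CPM in control, and Cxcr2 at 0.482 to 0.95 and 0.151 to 0.187 CPM. Mmp8 stood at 0.238 to 0.577 CPM in CIAKI and at most 0.0925 CPM in control, and S100a9 at 0.124 to 0.95 and at most 0.132 CPM. Elane was at 0 in all 9 libraries. Camp, Ltf and Ngp were at 0 in the 3 CIAKI libraries, where a count of 0 allows up to 3 reads, or 0.0361 to 0.0466 CPM, and at most 0.0274, 0.0861 and 0.287 CPM in control. Mpo ranged from 0 to 0.854 CPM in CIAKI and from 0.0861 to 2.06 CPM in control. The part of neutrophils in the Lcn2 result was not tested.

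Spp1 varied most between rats of the same group. Its level was 243, 379 and 138 CPM in control, 2550, 5430 and 1508 CPM in CIAKI and 455, 482 and 221 CPM in icariin libraries. The lowest CIAKI library was above the highest of the others, whereas icariin and control libraries overlapped. Reads of Spp1 made up 0.151% to 0.543% of a CIAKI library, against 0.0138% to 0.0379% of a control library. The log2 fold change was 3.55 (SE 0.51, adjusted p = 0.000828) in CIAKI against control and -2.91 (SE 0.51, adjusted p = 0.00239) in icariin against CIAKI. For icariin against control the estimate was 0.64 with a 95% interval from -0.52 to 1.8 (adjusted p = 0.776). Osteopontin is made by tubule cells and by macrophages. Of 10 macrophage markers 9 were tested, of which 1 rose (Mrc1) and 3 fell (Adgre1, Csf1r and Lyz2) in CIAKI. Over all tested features 20.8% rose and 20.5% fell. Cd163, below the filter, stood at 2.45, 1.41 and 0.901 CPM in CIAKI and 0.356, 0.144 and 0.529 CPM in control. The 10 summed to 211 to 313 CPM in CIAKI, 310 to 359 CPM in control and 292 to 362 CPM in icariin libraries, with none at 0 in all libraries. Lyz2 alone gave 196, 167 and 144 CPM in CIAKI. The part of macrophages in the Spp1 result was not tested.

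Clu and Timp1 rose by less. Clu stood at 76.5, 80.9 and 62 CPM in control, 107, 121 and 122 CPM in CIAKI and 66, 64.1 and 47.1 CPM in icariin libraries, and the CIAKI libraries overlapped neither group. The log2 fold change was 0.67 (SE 0.14, adjusted p = 0.00533) in CIAKI against control and -0.98 (SE 0.14, adjusted p = 0.000955) in icariin against CIAKI. In icariin against control Clu lay at -0.31 (95% interval -0.63 to 0.01, adjusted p = 0.514).

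Timp1 was low in control kidneys, at 3.17, 2.99 and 3.63 CPM. CIAKI libraries held 8.02, 13.7 and 8.56 CPM and icariin libraries 3.37, 2.62 and 2.88 CPM, so that CIAKI again overlapped neither group. Its log2 fold change was 1.35 (SE 0.2, adjusted p = 0.00087) in CIAKI against control and -1.46 (SE 0.2, adjusted p = 0.000687) in icariin against CIAKI. Icariin against control gave -0.11 (95% interval -0.55 to 0.33, adjusted p = 0.923). RefSeq places Timp1 within the span of the synapsin gene Syn1 (0.254 to 1.54 CPM), and Clu and Timp2 overlap Scara3 (0.932 to 2.15 CPM) and Cep295nl (0.124 to 0.978 CPM). Clu also overlaps the pseudogene Ppp2r1a-ps1, for which there was no CPM value. Reads of overlapping genes could not be told apart, since no strand setting is given.

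Timp2 fell in CIAKI, and with icariin it did not differ detectably from CIAKI. Control libraries held 39.4, 36.6 and 34.2 CPM, CIAKI libraries 20.5, 23.2 and 21.2 CPM and icariin libraries 26.1, 26 and 21.7 CPM. Both treated groups lay below every control library, and they overlapped each other. The log2 fold change was -0.74 (SE 0.1, adjusted p = 0.000605) in CIAKI against control. Icariin against CIAKI gave 0.17 (95% interval -0.05 to 0.4, adjusted p = 0.192), and icariin against control -0.56 (SE 0.1, adjusted p = 0.0495). That last call sits at the threshold: it ended with each of the 9 libraries left out in turn (adjusted p = 0.0543 to 0.192), while edgeR and DESeq2 on recovered reads gave adjusted p-values of 0.0465 and 2.57e-05.

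Cst3 had the smallest change of the 7 genes in CIAKI against control. It stood at 143, 120 and 140 CPM in control, 122, 97.6 and 96.5 CPM in CIAKI and 127, 134 and 109 CPM in icariin libraries, with overlap between every pair of groups. CIAKI against control gave -0.35 (SE 0.12, adjusted p = 0.0376). The call ended without control 1 (0.116), control 3 (0.109), CIAKI 2 (0.106), CIAKI 3 (0.107) or icariin 1 (0.0513). Icariin against CIAKI lay at 0.23 (95% interval -0.03 to 0.5, adjusted p = 0.145) and passed without CIAKI 1 (0.34, adjusted p = 0.0434). Icariin against control lay at -0.12 (95% interval -0.39 to 0.14, adjusted p = 0.828).

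**Figure D2:**
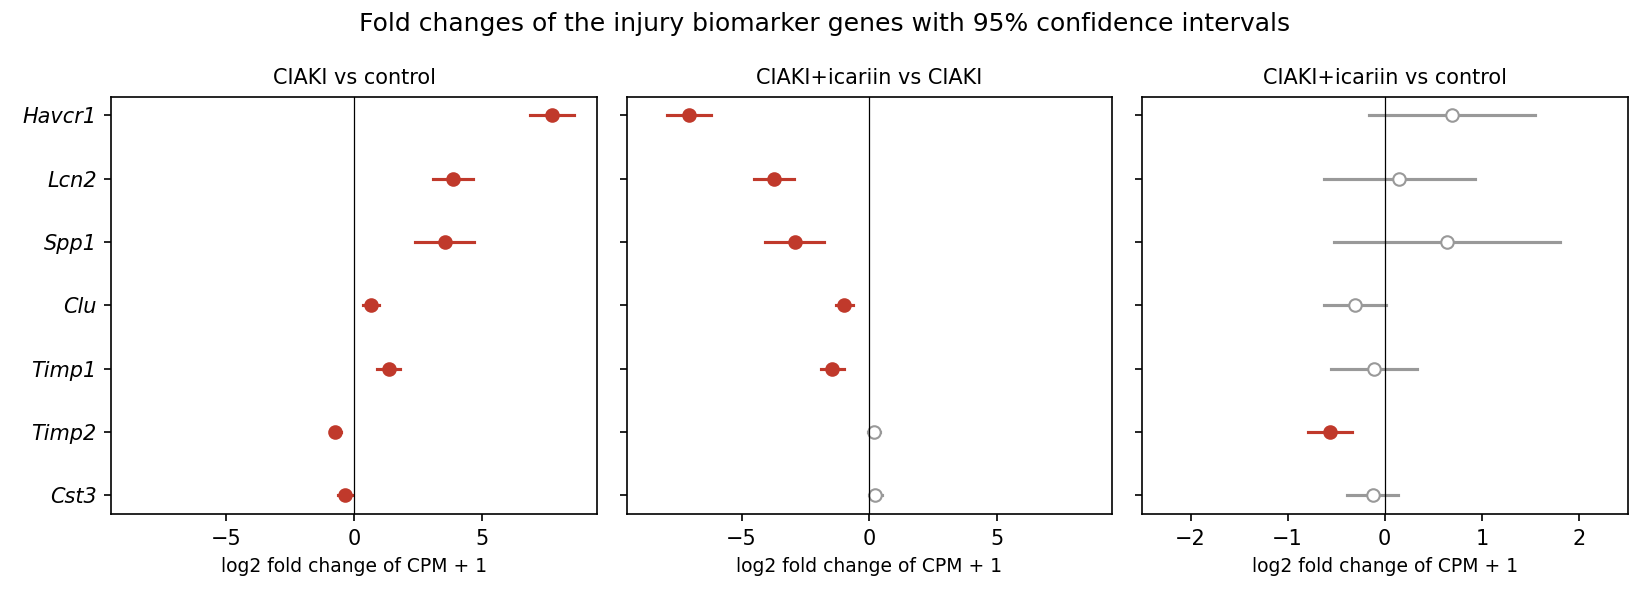
Log2 fold change of CPM + 1 (horizontal axis, on a narrower scale in the right panel) of each injury biomarker gene in the 3 comparisons, with 95% confidence intervals from limma. Filled red points passed an adjusted p of 0.05 and open grey points did not: 7 genes pass in CIAKI against control, 5 in icariin against CIAKI and 1, Timp2, in icariin against control.

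The genes that rose most also differed most between CIAKI rats. On the log2(CPM + 1) scale the SD within CIAKI was 0.93 for Spp1, 0.84 for Havcr1 and 0.77 for Lcn2, against a median of 0.18 over tested features and larger than in 98.3%, 97.8% and 97.3% of them. Timp1 stood at 0.39, Cst3 (0.19) was close to that median, and Clu (0.11) and Timp2 (0.09) lay below it. The highest CIAKI library was CIAKI 1 for Havcr1 and CIAKI 2 for Lcn2, Spp1 and Timp1, and CIAKI 3 was the lowest for Havcr1, Lcn2 and Spp1. Spp1 was variable in the other groups too, with SDs of 0.73 in control and 0.62 in icariin libraries against medians of 0.12 and 0.14.

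Levels of different genes can be set side by side only per length. The authors' deposited table of selected mRNAs gives FPKM (fragments per kilobase of transcript, scaled to the size of the library) for the CIAKI and icariin libraries and holds 5 of the 7 genes, without Timp2 and Cst3. In CIAKI libraries Spp1 had the highest FPKM, at 1305, 2871 and 802. Havcr1 (142, 83.1 and 45.7 FPKM), Clu (48.8, 57 and 57.9) and Lcn2 (48.7, 72 and 24.7) overlapped one another, and Timp1 was lowest at 8.12, 14.4 and 9. In icariin libraries the order was Spp1 (121 to 255 FPKM), Clu (22.9 to 31.5), then Timp1 (2.75 to 3.56) and Lcn2 (1.83 to 3.58), whose ranges overlapped, and Havcr1 (0.274 to 0.522). Havcr1, among the higher genes in CIAKI, was the lowest of the 5 there. The length the authors used for it was long: CPM over FPKM was 4.92 to 5.22 for Havcr1, against 1.84 to 1.95 for Spp1 and 1.12 to 1.19 for Lcn2, and a longer length lowers the FPKM.

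**Figure D3:**
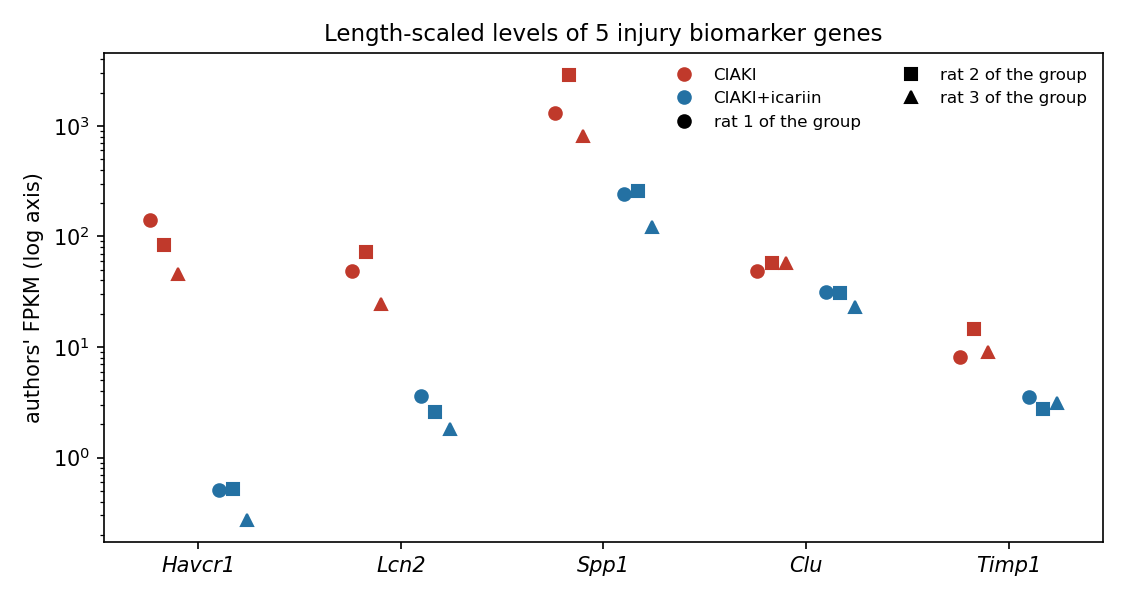
FPKM from the authors' deposited table (vertical log axis) of the 5 injury biomarker genes it holds, in the 3 CIAKI (red) and 3 icariin (blue) libraries, with symbols for the rat number. Spp1 is highest in both groups, and Havcr1 moves from 45.7 to 142 FPKM in CIAKI to the lowest values of the plot, 0.274 to 0.522 FPKM, with icariin.

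Timp3 and Timp4, like Timp2, fell in CIAKI kidneys, where Timp1 rose. Reck, a membrane-anchored metalloproteinase inhibitor gene, lay at -0.29 and did not pass. Timp3, which is bound to the extracellular matrix, stood at 611, 539 and 637 CPM in control, 256, 320 and 350 CPM in CIAKI and 631, 589 and 545 CPM in icariin libraries. Its log2 fold change was -0.96 (SE 0.12, adjusted p = 0.000463) in CIAKI against control and 0.94 (adjusted p = 0.000589) in icariin against CIAKI. Timp4 lay at -1.34 and 1.34 in the same comparisons (adjusted p = 0.00077 and 0.000875). In icariin against control, Timp3 (-0.02, 95% interval -0.29 to 0.26) and Timp4 (0.00, -0.43 to 0.43) did not pass. The gelatinase gene Mmp9 stood at 27.9, 10.9 and 20.1 CPM in control, 1.3, 1.49 and 0.73 CPM in CIAKI and 8, 19.3 and 13.3 CPM in icariin libraries, which is -3.17 on the log2 scale (SE 0.37, adjusted p = 0.000284) in CIAKI. Mmp2, the other gelatinase, fell by 0.97 (adjusted p = 0.00361). Mmp14, its membrane-bound activator, lay at -0.09 (adjusted p = 0.77), and matrilysin, Mmp7, was at most 0.109 CPM in any library.

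Of 21 genes of metalloproteinases and their regulators 16 were tested. In CIAKI 3 rose, 6 fell and 7 did not pass, with a median of -0.19 (20.8% of all tested features rose and 20.5% fell). The genes that rose were Adamts1 (1.56, adjusted p = 0.0026) and Adamts4, matrix proteases, and Cd63, a tetraspanin that binds TIMP-1 (0.5, adjusted p = 0.0027). With icariin 4 were higher and 3 lower than in CIAKI, against 19.2% and 20.2% of all tested features. Against control 0 of the 16 were called, where 0.628% of all tested features were. Fibroblast and pericyte markers, whose cells are a source of these genes, numbered 8. Of these 1 rose (Dcn) and 3, all collagen genes, fell (Col1a1, Col1a2 and Col3a1) in CIAKI (20.8% and 20.5% of all tested features). Pdgfra (mean 110 CPM in control and 127 CPM in CIAKI) and Pdgfrb (76.9 and 68.2 CPM) were not called. Their sum was 625 to 984 CPM in control, 490 to 560 CPM in CIAKI and 433 to 643 CPM in icariin libraries, and their part in the result was not tested.

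**Figure D4:**
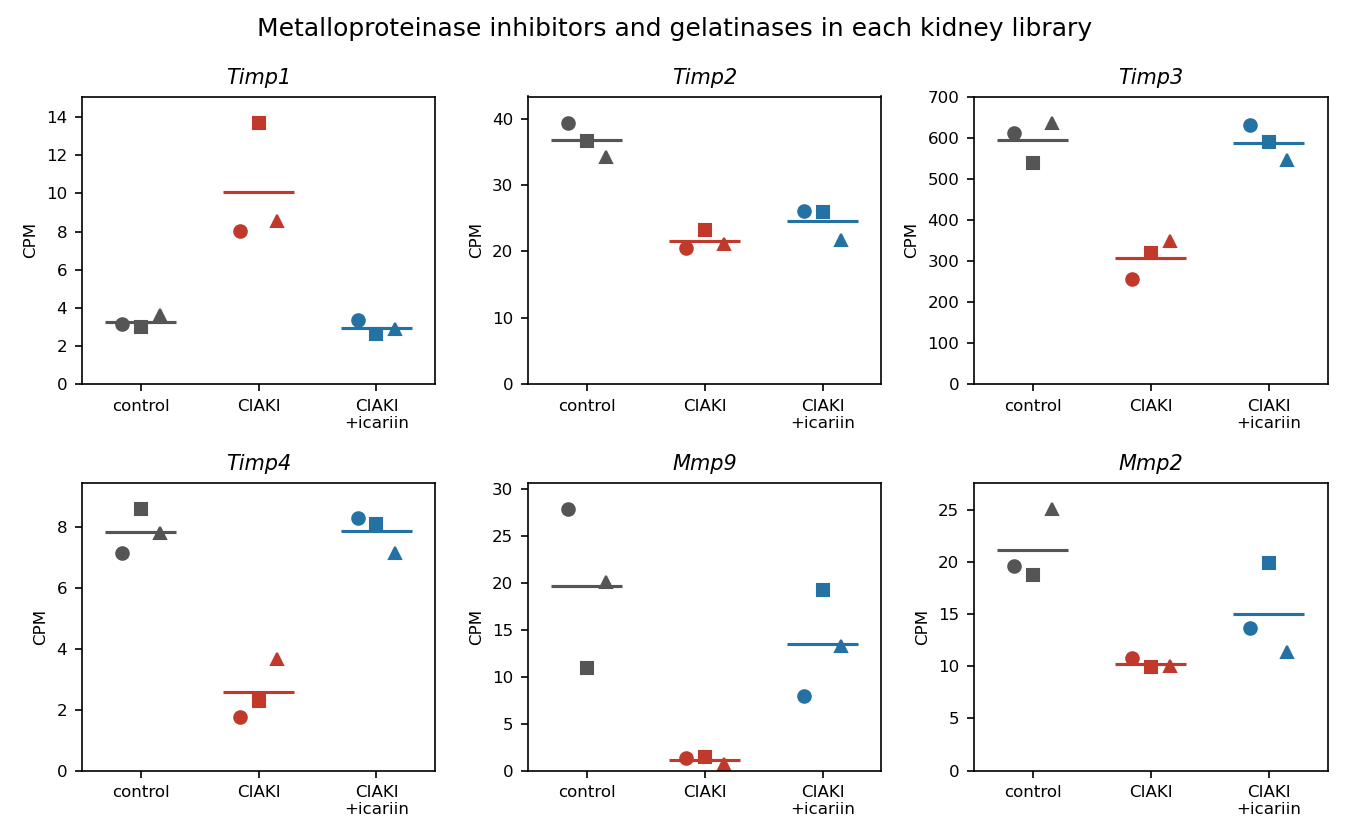
CPM (vertical axis, from 0) of the metalloproteinase inhibitors Timp1 to Timp4 and of the gelatinases Mmp9 and Mmp2 in each kidney library by group, with symbols for the rat number and lines for the mean of 3 rats. Timp1 is higher in CIAKI, where the other 5 are lower, and Timp2 stays at 21.7 to 26.1 CPM with icariin while Timp3 and Timp4 lie within the control range.

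Receptors and partners of the encoded proteins moved in both directions. Of 19 such genes 15 were tested, of which 4 rose, 5 fell and 6 did not pass in CIAKI (median -0.17). Over all tested features 20.8% rose and 20.5% fell. The integrin subunits of osteopontin receptors Itgav and Itgb1 rose by 1.17 (SE 0.1, adjusted p = 7.15e-05) and 0.49 (adjusted p = 0.00127), while Itga8 and Itga4 fell by 1.03 and 1.27. Lrp8, a lipoprotein receptor that binds clusterin, rose from 1.27, 2.46 and 2.44 CPM to 25.8, 20.1 and 9.55 CPM (log2 fold change 2.6, adjusted p = 0.000419). Both receptors described for NGAL fell, Slc22a17 by 0.59 (adjusted p = 0.0134) and megalin, Lrp2, by 1.19 (adjusted p = 0.00227). The Slc22a17 call ended without control 1 (adjusted p = 0.0528). In icariin against CIAKI 4 were higher and 5 lower, against 19.2% and 20.2% of all tested features. In icariin against control 0 of 15 were called, where 0.628% of all tested features were.

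Cathepsin genes rose and fell in CIAKI. Cystatin C inhibits the cysteine cathepsins, while the list counted here also holds the aspartic protease gene Ctsd and the serine carboxypeptidase gene Ctsa. Of 14 genes of cathepsins, legumain and other cystatins 12 were tested, and 4 rose, 3 fell and 5 did not pass in CIAKI (median 0.11). Over all tested features 20.8% rose and 20.5% fell. Among the cysteine cathepsins, Ctsl rose by 0.86 (adjusted p = 0.00235), Ctsh fell by 1.15 (adjusted p = 0.000339), and Ctsb lay at 0.07 (95% interval -0.36 to 0.49). The intracellular inhibitor cystatin B, Cstb, rose by 0.73 (SE 0.1, adjusted p = 0.000705) and lay at -0.86 in icariin against CIAKI (adjusted p = 0.000373).

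Among genes of transcription factors and signalling proteins known to act on some of these biomarker genes, more rose than fell in CIAKI. Of 30 transcription factor and signalling genes 27 were tested, of which 14 rose, 2 fell and 11 did not pass (59.3% called, median 0.47). Over all tested features 20.8% rose and 20.5% fell. The factor genes that fell were Runx2 and Ets1, named after their values were seen. Osmr, the oncostatin M receptor, went from 9.61, 16.4 and 11.9 CPM to 68.4, 135 and 60.7 CPM and stood at 10.6, 15.6 and 13.6 CPM with icariin. The log2 difference was 2.64 (SE 0.3, adjusted p = 0.000259) in CIAKI against control and -2.57 in icariin against CIAKI. Stat3, a transcription factor downstream of that receptor family, rose by 1.08 (adjusted p = 0.000763), its feedback inhibitor gene Socs3 by 2.01 (adjusted p = 0.00157), the C/EBP factor gene Cebpd by 1.03 and the NF-kB inhibitor gene Nfkbia by 0.86. In icariin against CIAKI 17 of the 27 fell and 0 rose (63% called against 39.4% of all tested features, median -0.57). Against control 0 were called, where 0.628% of all tested features were.

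Other genes with products in use as kidney injury markers fell more often than they rose. Of 24 genes 19 were tested, and 3 rose, 11 fell and 5 did not pass in CIAKI (median -0.74). Over all tested features 20.8% rose and 20.5% fell. The list was not sorted by whether a marker is read by its rise or its fall, so these counts give no direction of injury. Those that rose were Gstp1 (1.29), Vnn1 and Cd44. Umod was among those that fell (-0.79), a call that ended without control 2 (adjusted p = 0.0534). Igfbp7, the urinary partner of TIMP-2, stood at 572, 501 and 528 CPM in control, 310, 302 and 344 CPM in CIAKI and 462, 395 and 360 CPM in icariin libraries, which is -0.74 on the log2 scale (SE 0.1, adjusted p = 0.000683) in CIAKI, as for Timp2. Icariin against CIAKI gave 0.34 (adjusted p = 0.0267). This call ended without CIAKI 1 or 2 or icariin 1 or 2 (0.067, 0.0761, 0.0857 and 0.0569), without the filter (0.0505) and in a fit of those groups alone (0.0515). The axon guidance gene Ntn1 fell by 0.99, the thick ascending limb growth factor gene Egf by 1.84, the heparin-binding growth factor gene Mdk by 1.11 and the adhesion molecule gene Vcam1 by 1.12. The distal tubule calcium-binding protein gene Calb1 stood at 612, 550 and 534 CPM in control, 216, 202 and 239 CPM in CIAKI and 198, 255 and 224 CPM in icariin libraries. It fell by 1.37 in CIAKI (adjusted p = 5.13e-05) and lay at -1.32 in icariin against control (adjusted p = 0.00294). Vnn1, the pantetheinase vanin-1, rose from 44.5, 51.1 and 52.8 CPM to 235, 263 and 476 CPM in CIAKI, and was at 175, 230 and 227 CPM with icariin, a log2 fold change of 2.06 against control (adjusted p = 0.00836). Ccl2, a monocyte chemoattractant gene, fell from 2.95, 3.65 and 4.61 CPM to 0.529, 0.654 and 0.901 CPM in CIAKI and stood at 1.47, 0.977 and 0.454 CPM with icariin. It lay at -1.29 against control there (adjusted p = 0.0449), a call that ended under 13 of 21 alternatives. These were edgeR (0.12), the replicate block (0.109), no filter (0.0957), a pseudocount of 0.1 (0.0933), the fit of those groups alone (0.0743) and every single library left out but icariin 1 (0.0565 to 0.188). Cd44, a receptor of hyaluronan and osteopontin, rose by 0.9 in CIAKI (adjusted p = 0.00772) and lay at -1.07 in icariin against CIAKI.

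**Figure D5:**
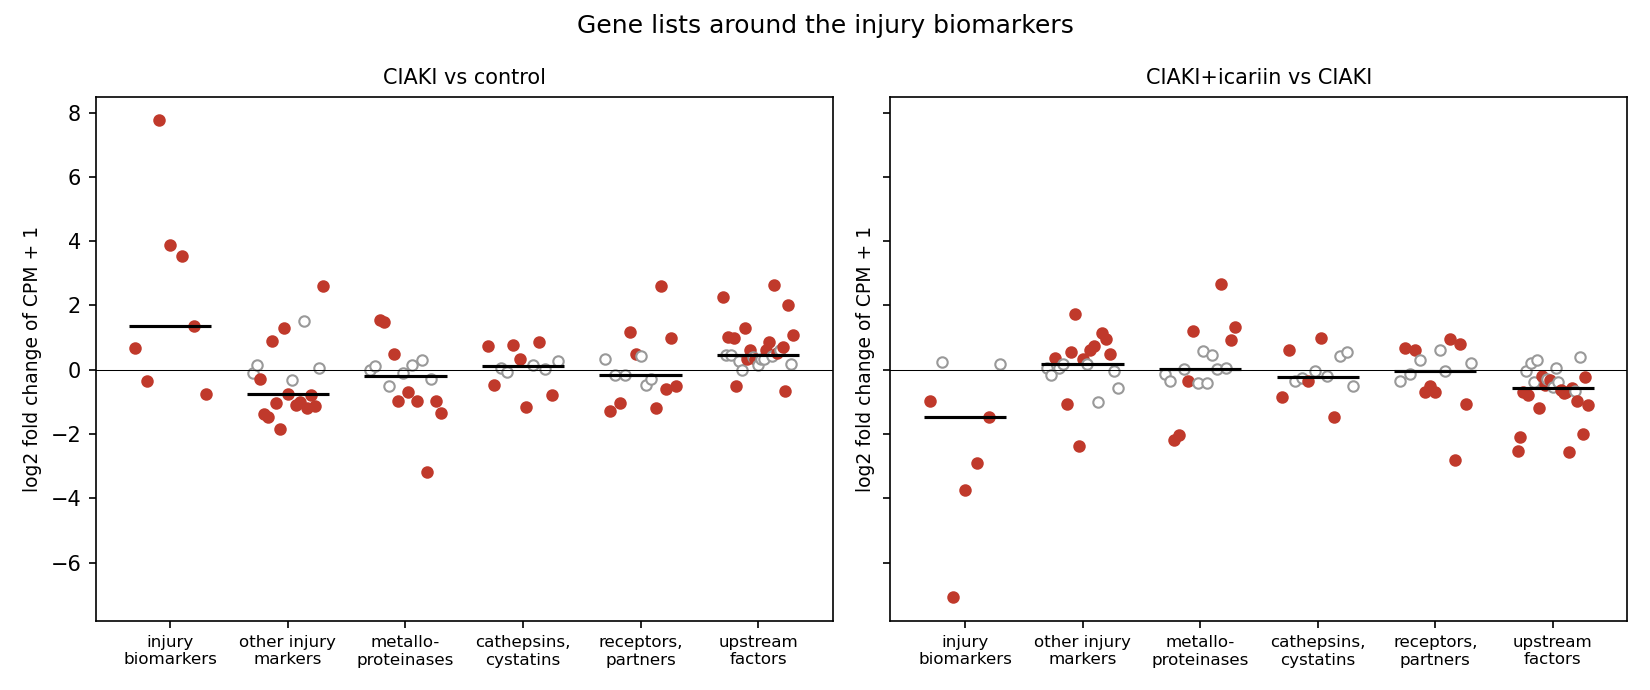
Log2 fold change of CPM + 1 (vertical axis) of every tested gene in the 7 injury biomarkers and 5 lists around them, in CIAKI against control (left) and icariin against CIAKI (right). Filled red points passed an adjusted p of 0.05, open grey points did not, and black lines are medians: 1.35 and -1.46 for the biomarkers, 0.47 and -0.57 for upstream factors, and -0.74 and 0.19 for other injury markers.

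The genes whose pattern over the 9 libraries was closest were found by the root mean square difference of log2(CPM + 1), each gene centred on its mean, among 13354 named genes. This is a description of libraries that fall into groups. The difference was not scaled by the size of a gene's change, so genes that change little lie close to one another. For Havcr1 no gene came closer than 1.26: Gpnmb, a lysosomal glycoprotein gene of macrophages and injured cells (2.38 ± 0.632 CPM in control and 117 ± 51.3 CPM in CIAKI), was followed by the efflux pump gene Abcc2 (1.28). The closest to Lcn2 were the fibrinogen chain gene Fga (0.25), the cystine transporter gene Slc7a11 (0.33) and the lipid droplet gene Plin2 (0.37), and those to Spp1 were Fga (0.52), Medag (0.56) and Gstm2 (0.58). For Timp1 they were the stress response factor gene Atf4 (0.12), Kctd1 (0.12) and Plb1 (0.13), and for Clu Csdc2 (0.12), Rtn4 (0.14) and the lipoprotein lipase gene Lpl (0.14). The closest to Timp2 were Gimap7 (0.08), Arhgef10l (0.09) and the tyrosine kinase gene Fyn (0.1), and to Cst3 Wbp2, LOC100911130 and Wwp2 (0.07 each). With a pseudocount of 1, low genes can lie close at unlike ratios. The ratio of means in CIAKI over control was 9.08 for Plb1 and 3.1 for Timp1. It was 42.9 for Slc7a11 and 21.9 for Lcn2, and 0.322 for Gimap7 and 0.589 for Timp2. Control means of Plb1, Slc7a11 and Gimap7 were 0.253, 0.368 and 1.59 CPM. Within the biomarkers, Lcn2 and Spp1 were nearest to each other (0.52), as were Timp1 and Clu (0.38) and Timp2 and Cst3 (0.24).

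Libraries held 64380578 to 90398405 reads, so that 1 CPM stood for 64.4 to 90.4 reads. Markers of the proximal tubule, thick ascending limb, collecting duct, podocyte and endothelium were present in every group. Of 6 erythroid markers 4 rose in CIAKI (Hbb, Hba-a1, Hba-a2 and Ahsp) and 0 fell, where 20.8% of all tested features rose. The 6 summed to 2249 to 2788 CPM in CIAKI, 398 to 1585 CPM in control and 412 to 1595 CPM in icariin libraries, and their part in the results was not tested. Hbb stood at 401, 78 and 68.6 CPM in control, 830, 663 and 671 CPM in CIAKI and 67.5, 416 and 397 CPM in icariin libraries. Mitochondrially encoded genes took 1.65% of reads in icariin 2 and 3.86% to 5.71% in the others. Without control 1, log2 fold changes in CIAKI against control were 7.87, 3.94 and 3.58 for Havcr1, Lcn2 and Spp1, and without icariin 2 those in icariin against CIAKI were -7.17, -3.73 and -3.11, with every one of these called.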

How the data were processed

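The authors deposited a gene table in CPM, in which each library summed to the same total and 100% of values were whole multiples of 1 step (within 0.1 of a whole number), so whole reads could be recovered. They were identical to the 23850 values headed as counts in the authors' deposited table of selected mRNAs, which also holds FPKM, per the file headers. The submitters' processing notes name Bowtie 0.12.2 and the build mm8, a mouse genome, while the identifiers are rat Ensembl genes. The sources used here give no counter, filter or annotation; TruSeq libraries were made from total RNA, per the labels' protocols.

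Testing covered features reaching 1 CPM in 3 or more libraries, with limma 3.58.1 (R 4.3.3, intensity trend) on log2(CPM + 1), group as the factor, all 9 libraries in 1 fit, two-sided. The fitting code was tested on simulated data. The alternatives were other scalings, pseudocounts and filters, edgeR 4.0.16 and DESeq2 1.42.0 on recovered reads, pairwise fits, a replicate block and leaving out each library. Replicates are separate rats, per the series design. Members, lists and tests were chosen with earlier results of these data known. Named genes were all members, the genes of each list with the smallest p in CIAKI against control (up to 6), up to 3 called in icariin against control, a fixed set, and the 3 closest patterns per member. Adamts4, Runx2, Ets1, Reck, Gstp1, Cubn, Aqp1, Slc4a4 and the macrophage, neutrophil, fibroblast and erythroid genes were named after their values were seen. Tables of circRNAs, lncRNAs and miRNAs were not used.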

Additional observations from a re-analysis of the deposited data

How the results depend on the processing

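Over 21 alternatives each, the calls of Havcr1, Lcn2, Spp1, Clu and Timp1 in CIAKI against control and in icariin against CIAKI, and of Timp2 in CIAKI against control, kept direction and threshold. In CIAKI against control 6 to 7 of the 7 genes were called, and in icariin against CIAKI 5 to 6. The Cst3 call in CIAKI against control ended without the filter and without the intensity trend (-0.35 in both, adjusted p = 0.0633 and 0.0592) and ranged from -0.46 to -0.3 with 1 library left out, and in icariin against CIAKI Cst3 ranged from 0.17 to 0.34. In icariin against control, the Timp2 call ended with a pseudocount of 0.1 (-0.58), and at -0.56 without the filter, without the trend and in the pairwise fit, so that 0 of 7 genes were called, and it ranged from -0.61 to -0.48 with 1 library left out, with 0 of 7 called each time. The cause was not tested. The count of all genes called there was 105, against 52 without the filter, 523 with DESeq2 and 31 to 127 with 1 library left out. Lcn2 ranged from -0.04 to 0.33 there and changed sign without icariin 1, uncalled on both sides.

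The labels number the rats of each group, but nothing ties equal numbers together, and deviations of same-numbered libraries from their group means correlated at -0.0349 to 0.0813 over features. With the replicate block, Timp2 in icariin against control lay at -0.56 (adjusted p = 0.0722), leaving 0 of 7 called, and 73 genes were called there. Library 3 was the lowest of its group for Havcr1, Lcn2 and Spp1 in all 3 groups, and the SE of Spp1 in CIAKI against control was 0.17 with the block and 0.51 without it.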
